A study of Mus musculus with 48 samples.

Results

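The genes described here are 10 genes linked to signaling from fibroblast growth factors (FGFs) through the kinase ERK. They are the ligand *Fgf4*, the feedback inhibitors *Spry2*, *Spry4*, *Spred1*, *Spred2*, *Dusp4*, and *Dusp6*, the ETS transcription factors *Etv4* and *Etv5*, and the immediate early gene *Egr1*. They were chosen by name among the 24264 transcripts of the count table, with earlier results of these data known. All 10 were found, and all 10 were among the 15630 genes that passed the filter on low counts over all libraries.

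RNA of mouse cells was sequenced with STRT, a multiplexed method that reads the 5′ end of each transcript, as 48 libraries of 20 conditions. MKOS and OKMS cells descend from TNG ESCs, which carry GFP in the *Nanog* locus, and hold a doxycycline-inducible cassette and an rtTA gene driven by the CAG promoter in an intron of *Sp3*. Both cassettes express *Myc*, *Klf4*, *Oct4*, and *Sox2* from 1 transcript in the order of their names, and OKMS carries a *Klf4* that lacks N-terminal residues. The MEFs (embryonic fibroblasts) with a cassette came from chimeric embryos and were mixed with an excess of WT MEFs for reprogramming with doxycycline and VitC. On day 10, E-CAD+ cells of both cassettes were sorted as 2NG-, 3NG-, and 3NG+, and E-CAD- cells of OKMS as 2NG- and 3NG-, with 3 libraries for each population. Here 2 stands for the gate with little CD44 and little ICAM1, 3 for the gate with little CD44 and much ICAM1, and NG for *Nanog*-GFP. Steps, rises, and falls between populations are differences between separate samples, not changes followed in the same cells. The labels' culture protocol gives 10 or 15 days. The other conditions had 2 libraries each: WT, MKOS, and OKMS MEFs, iPSCs of both cassettes without doxycycline (-dox) or in 2i medium (2i), the iPSC line D6 (1 line), and ESCs of 4 kinds, TNG OKMS, TNG MKOS, TNG, and E14. The paper describes a single *piggyBac* MKOS integration in an iPSC line named D6s4B5, and the sample titles do not say whether D6 is that line. MEFs were grown in a medium with serum to which FGF2 and heparin were added. The methods give the serum medium with LIF for ESCs and iPSCs in general and do not name 2i. Whether FGF2 was added there too is not stated. Neither the labels nor the methods say that libraries of 1 condition came from separate cultures, so p-values measure only the spread between these libraries, which may be technical.

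Between 1429717 and 14174725 reads per library lay on transcripts, with a median of 6243255, and levels are given as CPM, the reads of a gene scaled to the same total of these reads in every library. A count of 3 reads corresponded to 0.212 to 2.10 CPM, the latter in replicate 2 of OKMS 3NG+ cells, the shallowest library. The labeled cell types carried their markers. The sum of 13 fibroblast markers was 3322 to 5892 CPM in the 6 MEF libraries and 6.01 to 36.5 CPM in the iPSC and ESC libraries, and that of 9 pluripotent cell markers was 2.57 to 11.5 CPM in MEFs, without a read of *Nanog*, and 11013 to 23369 CPM in iPSCs and ESCs. In such bulk samples, fewer cells that express a gene and less RNA of it per cell cannot be told apart.

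When an FGF binds its receptor, the RAS-RAF-MEK-ERK kinase cascade is switched on, and active ERK induces immediate early genes such as *Egr1* and ETS factors of the PEA3 family, among them *Etv4* and *Etv5*. The same signal induces its own inhibitors: Sprouty and SPRED proteins restrain the cascade at the level of RAS and RAF, and dual specificity phosphatases dephosphorylate ERK and other MAP kinases. Mouse ESCs make FGF4 themselves, under OCT4 and SOX2, and the signal prepares them for differentiation. 2i medium is known as a combination of a MEK inhibitor, which blocks the step before ERK, and a GSK3 inhibitor, which raises β-catenin signaling. The composition of the 2i medium used here and the time spent in it were not given in the sources used here, and the contributions of the inhibitors cannot be told apart.

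PEA3 family factors bind DNA at a core of GGAA, and the 100 bases before the RefSeq starts (GRCm38.p6) are shown for 2 genes that fell in 2i and 2 that did not pass the test there. Capitals mark GGAA and its reverse complement TTCC. The windows lie at chr10:99263131-99263230 on the plus strand for *Dusp6*, chr14:105896820-105896919 on the minus strand for *Spry2*, chr7:144861286-144861385 on the plus strand for *Fgf4*, and chr16:22439571-22439670 on the minus strand for *Etv5*, at the more upstream of its 2 starts.
Dusp6: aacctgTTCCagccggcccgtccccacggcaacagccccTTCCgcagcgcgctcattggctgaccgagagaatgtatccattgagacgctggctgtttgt
Spry2: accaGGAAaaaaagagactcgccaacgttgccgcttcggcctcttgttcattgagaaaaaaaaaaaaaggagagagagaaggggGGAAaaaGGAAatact
Fgf4: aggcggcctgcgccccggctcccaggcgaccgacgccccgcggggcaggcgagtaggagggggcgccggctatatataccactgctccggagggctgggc
Etv5: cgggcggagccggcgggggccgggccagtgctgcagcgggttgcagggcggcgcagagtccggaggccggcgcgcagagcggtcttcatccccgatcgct
The motif occurred 2 times before *Dusp6*, 3 times before *Spry2*, and not before *Fgf4* and this start of *Etv5*. It occurred once before the other start of *Etv5*, once before *Spred1*, and 4 times before *Spred2*, neither of which passed the test in 2i. Of 32851 promoter windows of this length, 66.8% held it on either strand. RefSeq promoters were matched for 6 of the 10 genes, and those of *Spry4*, *Dusp4*, *Etv4*, and *Egr1* are not shown.

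The 2i iPSCs were compared with the -dox iPSCs. The labels give neither the base medium nor the doxycycline state of the 2i cells. The comparison thus covers every difference between these cultures and cannot single out MEK inhibition. With both cassettes averaged, 5 of the 10 genes fell in 2i and none rose by edgeR's quasi-likelihood test with Benjamini-Hochberg adjustment at 0.05: *Spry4*, *Dusp6*, *Dusp4*, *Etv4*, and *Spry2*. Of all genes tested, 4.34% were called and 2.45% were called lower. Because the 10 genes were chosen with earlier results of these data known, such shares describe them and are no independent test. The fitted changes of all 10 genes were below 0, with a median of -1.71 on the log2 scale against 0 for all genes tested. In the same 5 genes, every 2i library lay below every -dox library, which held for 2.78% of all genes tested. Over all genes, 296 were called higher and 383 lower, against 380 and 304 with library totals in place of TMM factors.

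**Figure D1:**
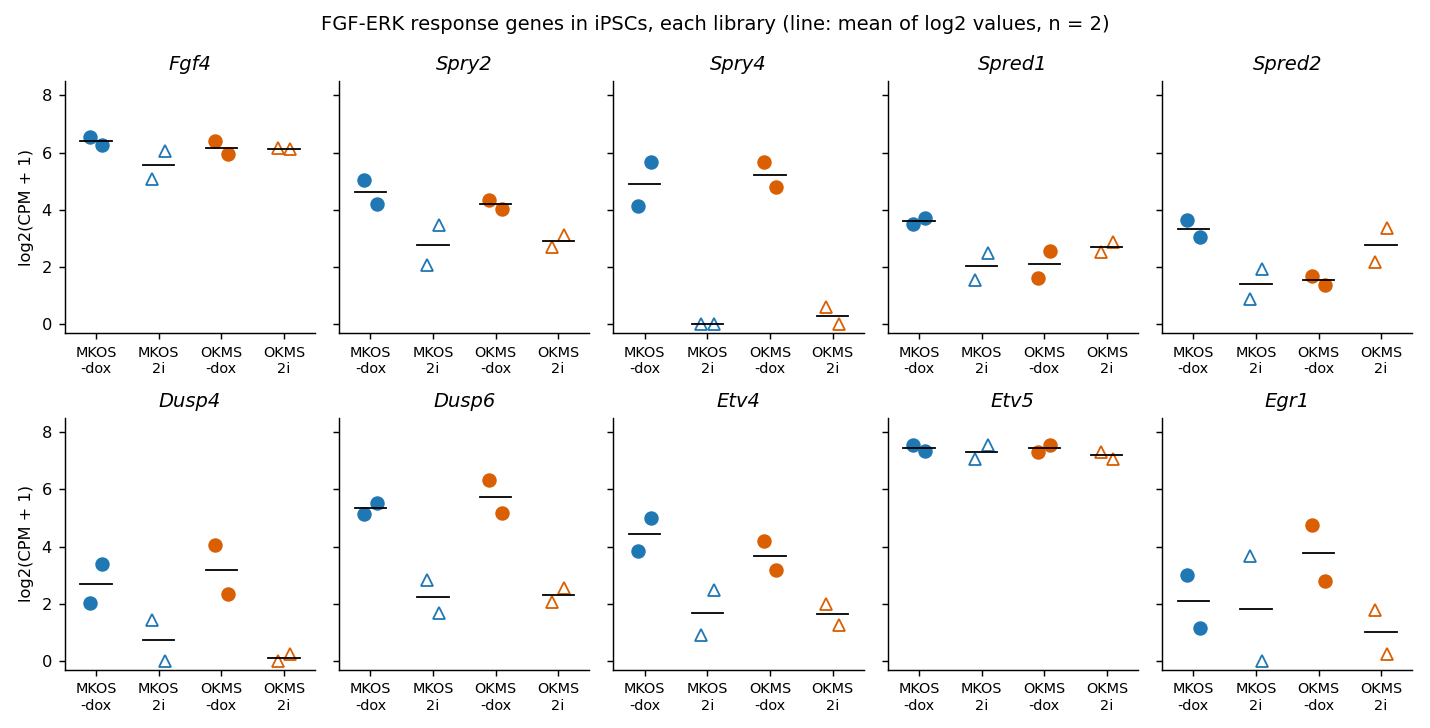
Levels of the 10 genes in each -dox (circles) and 2i (triangles) iPSC library of MKOS (blue) and OKMS (orange), as log2(CPM + 1), with lines at the means of 2 libraries. *Spry4*, *Dusp6*, *Dusp4*, *Etv4*, and *Spry2* were lower in all 4 2i libraries than in all 4 -dox libraries, whereas the media overlap for *Etv5* and *Fgf4*.

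*Spry4*, a Sprouty inhibitor, had the largest estimated change of the 10 genes. It had 158 and 284 reads in the MKOS -dox libraries and 240 and 149 in the OKMS -dox libraries, or 16.4, 50.4, 49.5, and 26.5 CPM. In 2i no read was counted in both MKOS libraries, and 3 and 0 reads in the OKMS libraries. The loss of reads in 2i was thus nearly complete with both cassettes. The pooled level was 221-fold lower in 2i (exact 95% interval for counting error, 75.4 to 1074), from 831 reads against 3 (edgeR's adjusted p = 4.70e-11). In MKOS iPSCs alone it was at least 88.4-fold lower, with a floor of 3 reads over the group, and in OKMS iPSCs it was 141-fold lower (47.9 to 686, 389 reads against 3). The fitted log2 change in OKMS moved from -7.23 to -11.2 without 2i replicate 1, the library with the 3 reads. *Spry2* was at 31.6 and 17.4 CPM in MKOS -dox, 19.2 and 15.5 CPM in OKMS -dox, 3.24 and 10.1 CPM in MKOS 2i, and 5.46 and 7.73 CPM in OKMS 2i libraries. These groups did not overlap, but the level stayed far from 0. SEs here and below come from the model of all 48 libraries. The log2 change was -1.72 ± 0.43 (SE, 4 libraries against 4, adjusted p = 0.013), or 3.29-fold lower. It was not called without MKOS -dox replicate 1, MKOS 2i replicate 1, or OKMS 2i replicate 1 (adjusted p = 0.0657, 0.108, and 0.0811).

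The phosphatase gene *Dusp6*, whose product acts on ERK, was at 34.0 and 45.2 CPM in MKOS -dox, 78.8 and 34.7 CPM in OKMS -dox, 6.05 and 2.20 CPM in MKOS 2i, and 3.17 and 4.92 CPM in OKMS 2i libraries. The groups were far apart with either cassette. The log2 change was -3.64 ± 0.34 (adjusted p = 8.62e-10), 12.5-fold lower, with -3.33 ± 0.48 in MKOS and -3.96 ± 0.48 in OKMS. *Dusp4*, encoding a nuclear phosphatase of the same family, had 30 and 53 reads in MKOS -dox, 75 and 23 in OKMS -dox, 8 and 0 in MKOS 2i, and 0 and 1 in OKMS 2i libraries. It was a low gene throughout, with 15.5 CPM as its highest -dox level. Its log2 change was -4.80 ± 1.02 (adjusted p = 0.00275). Without MKOS 2i replicate 1, which holds 8 of the 9 reads in 2i, the estimate was -7.58. In OKMS iPSCs the pooled level was 106-fold lower (exact 95% interval for counting error, 18.7 to 4248, 98 reads against 1).

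Of the ETS factors, 1 of 2 was called. *Etv4* was at 13.5 and 31.2 CPM in MKOS -dox, 17.1 and 8.02 CPM in OKMS -dox, 0.865 and 4.62 CPM in MKOS 2i, and 2.99 and 1.41 CPM in OKMS 2i libraries, without overlap between the media. Its log2 change was -2.86 ± 0.58 (adjusted p = 0.00162), 7.26-fold lower. *Etv5*, a close relative of *Etv4*, was at 185 and 159 CPM in MKOS -dox, 158 and 188 CPM in OKMS -dox, 131 and 187 CPM in MKOS 2i, and 158 and 132 CPM in OKMS 2i libraries, and these ranges overlapped. Its log2 change was -0.28 ± 0.25 (adjusted p = 0.644). Of the reads counted for *Etv5*, 52.0% also matched other positions, against none for *Etv4*, so the *Etv5* count is uncertain.

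Neither the ligand nor the SPRED genes passed the test. *Fgf4* was at 92.0 and 75.2 CPM in MKOS -dox, 83.3 and 61.1 CPM in OKMS -dox, 33.1 and 65.1 CPM in MKOS 2i, and 70.3 and 68.7 CPM in OKMS 2i libraries (log2 change -0.51 ± 0.36, adjusted p = 0.515). *Spred1* was at 10.5 and 12.1 CPM in MKOS -dox, 2.06 and 4.99 CPM in OKMS -dox, 1.95 and 4.62 CPM in MKOS 2i, and 4.76 and 6.32 CPM in OKMS 2i libraries (-0.65 ± 0.39, adjusted p = 0.410). *Spred2* was at 11.4 and 7.27 CPM in MKOS -dox, 2.27 and 1.60 CPM in OKMS -dox, 0.865 and 2.86 CPM in MKOS 2i, and 3.52 and 9.31 CPM in OKMS 2i libraries (-0.39 ± 0.53, adjusted p = 0.829). Both SPRED genes had lower values in 2i with MKOS, whereas the OKMS -dox libraries were already low. Of the *Spred2* reads, 16.0% matched several positions.

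*Egr1*, an immediate early transcription factor, differed widely between replicates. It had 68 and 7 reads in MKOS -dox, 125 and 33 in OKMS -dox, 54 and 0 in MKOS 2i, and 14 and 1 in OKMS 2i libraries. The media overlapped in MKOS and not in OKMS. With both cassettes its log2 change was -1.70 ± 0.56 (adjusted p = 0.0748). It was called without MKOS 2i replicate 1 (-5.84, adjusted p = 0.000237), MKOS -dox replicate 2 (adjusted p = 0.037), OKMS 2i replicate 1 (adjusted p = 0.0324), or OKMS -dox replicate 2 (adjusted p = 0.0244), and DESeq2's Wald test called it (adjusted p = 0.0342).

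Within MKOS iPSCs, 3 genes were called lower (*Spry4*, *Dusp6*, and *Etv4*), against 1.97% of all genes called, while DESeq2's Wald test called 6 of the 10 and 3.12% of all genes. In MKOS, 8 genes had no overlap in the lower direction, against 18.5% of all genes tested. The change of *Etv4* was -3.06 ± 0.82 (adjusted p = 0.0343) and was not called without MKOS 2i replicate 1 (adjusted p = 0.381) or MKOS -dox replicate 2 (adjusted p = 0.319), and was at -4.77 without MKOS 2i replicate 2. When edgeR was fitted to the compared libraries alone, *Etv4* in MKOS was not called (adjusted p = 0.0981). In OKMS, *Dusp4* and *Egr1* were then not called (adjusted p = 0.123 and 0.291). Within OKMS iPSCs in the main model, 4 genes were called lower (*Spry4*, *Dusp6*, *Dusp4*, and *Egr1*), against 0.505% of all genes, and 7 had no overlap in that direction, against 12.8%. There *Egr1* changed by -3.73 ± 0.84 (adjusted p = 0.0215) and lost the call without OKMS -dox replicate 1 (-2.25, adjusted p = 0.562) or OKMS 2i replicate 2 (adjusted p = 0.372), with -6.49 without OKMS 2i replicate 1. *Dusp4* lost it without OKMS -dox replicate 1, 2i replicate 1, or 2i replicate 2 (adjusted p = 0.309, 0.330, and 0.239). The difference between the cassettes itself was called for 0 of the 10 genes, with 3 at an unadjusted p under 0.05 (*Spred2*, *Egr1*, and *Spred1*) and 2 called by DESeq2's Wald test, and for 0.0064% of all genes. *Spred2* differed by 3.95 ± 1.08 (adjusted p = 0.272), *Spred1* by 2.33 ± 0.78 (OKMS minus MKOS, adjusted p = 0.398), and *Egr1* by -4.06 ± 1.12 (adjusted p = 0.272).

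**Figure D2:**
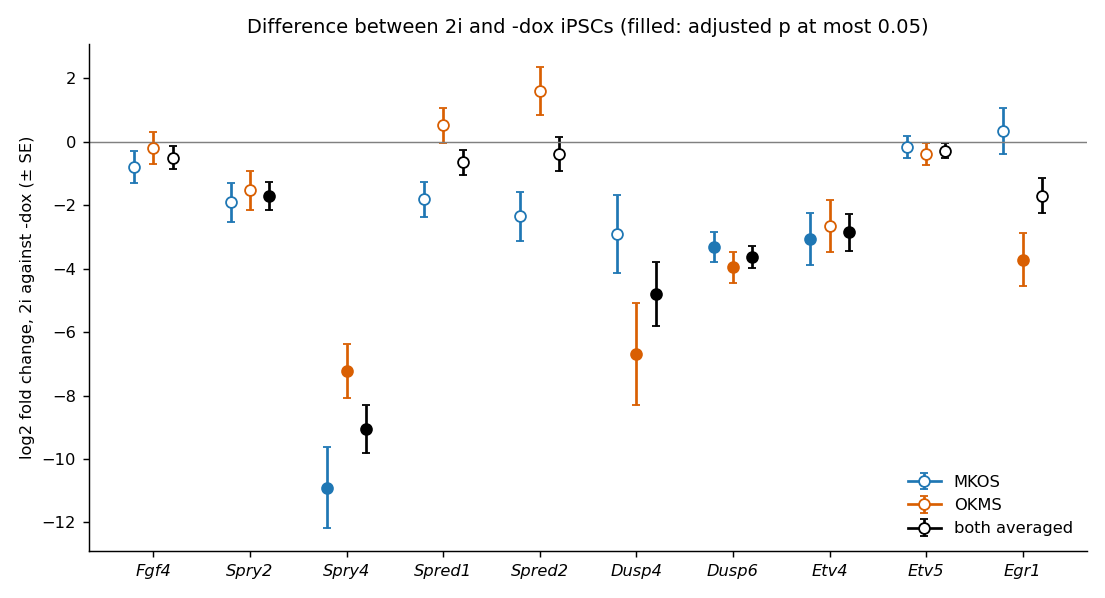
Log2 fold changes between 2i and -dox iPSCs with standard errors for MKOS (blue), OKMS (orange), and both averaged (black); filled points have an adjusted p of at most 0.05. *Spry4* has the lowest estimate in each series, though in OKMS *Dusp4* (-6.70 ± 1.60) lies within the error of *Spry4* (-7.23 ± 0.85), and the estimates of both rest on few reads in 2i and are no bounds; *Spred1*, *Spred2*, and *Egr1* show estimates on opposite sides of 0 for the cassettes.

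The other genes of the pathway were taken from lists chosen by function. In this comparison 2.45% of all genes tested were called lower, and 2718 of 15630 had an unadjusted p under 0.05. A single call in a short list does not describe the list. Among further FGF genes, 1 of 11 tested fell: *Fgf15*, a ligand made by ESCs, from 4.04 and 16.9 CPM in MKOS and 12.0 and 19.1 CPM in OKMS to 0 in 3 of the 4 2i libraries and 1.23 CPM in OKMS replicate 1 (adjusted p = 0.000941). Of 10 further feedback inhibitors, 1 fell, *Spry1* (-2.85 ± 0.70, adjusted p = 0.0101), another Sprouty gene. Of 15 further ERK-responsive genes, 3 fell: *Etv1* (-2.29 ± 0.54), the remaining PEA3 factor, and the immediate early genes *Zfp36* (-1.94 ± 0.54) and *Ier2* (-1.08 ± 0.18). No FGF receptor (6 tested) and no component of the cascade (18 tested) was called by edgeR, with 2 and 2 genes at an unadjusted p under 0.05 and 0 and 0 called by DESeq2. Both kinds of gene act upstream of or within the cascade.

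Some genes of other groups moved with 2i in the same libraries, and their part in the changes above was not tested. Over all genes tested, 4.34% were called, and 2718 of 15630 had an unadjusted p under 0.05. Of 8 naive pluripotency factors, 2 rose (*Tfcp2l1* by 2.23 ± 0.43 and *Tbx3* by 1.63 ± 0.38). Of 8 markers of primed epiblast and early mesoderm, 3 fell (*Pou3f1*, *Otx2*, and *Dnmt3b*), and their summed level was 186 to 330 CPM in -dox and 46.5 to 55.4 CPM in 2i libraries. Of 9 pluripotent cell markers, 3 fell (*Utf1*, *Dppa4*, and *Tdgf1*), with sums of 16563 to 18771 and 12828 to 18523 CPM. *Dab2* fell among 5 primitive endoderm markers. None of 9 β-catenin targets was called by edgeR (4 at an unadjusted p under 0.05, 2 called by DESeq2), but their summed level was 18.1 to 31.6 CPM in -dox and 56.5 to 75.4 CPM in 2i libraries. None of 13 fibroblast markers was called by edgeR (4 at an unadjusted p under 0.05, 2 by DESeq2), with sums of 8.37 to 30.9 and 14.5 to 36.5 CPM.

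To set the iPSCs against cells that had not been reprogrammed, they were compared with TNG MKOS and TNG OKMS ESCs; the 2 comparisons share these ESC libraries. Between -dox iPSCs and ESCs, 1 of the 10 genes was called, *Spred1*, against 1.4% of all genes. It was at 16.9 and 19.8 CPM in TNG MKOS and 27.7 and 26.1 CPM in TNG OKMS ESCs, and all 4 -dox iPSC libraries were lower (-1.66 ± 0.37, adjusted p = 0.0104). Without MKOS -dox replicate 1 (adjusted p = 0.0521) or OKMS -dox replicate 1 (adjusted p = 0.121) it was not called. Between 2i iPSCs and ESCs, a comparison added after the levels were seen, 6 genes were called lower, against 12.3% of all genes: *Spry4* (506-fold lower, exact 95% interval for counting error 173 to 2457), *Dusp6* (-3.58 ± 0.34), *Dusp4* (-4.52 ± 1.01, and -7.30 without MKOS 2i replicate 1), *Etv4* (-3.08 ± 0.58), *Spry2* (-2.49 ± 0.44), and *Spred1* (-2.32 ± 0.38). *Fgf4* (0.10 ± 0.36) and *Etv5* (-0.21 ± 0.25) were not called.

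D6 is 1 further iPSC line, and the methods give the medium with LIF for iPSCs without naming single lines. These comparisons were added after the levels were seen, and both use the same D6 libraries. *Dusp6* was at 6.32 and 8.76 CPM in D6, below all 4 -dox and above all 4 2i libraries of the other lines. *Spry4* differed between the D6 libraries, with 0.621 and 9.63 CPM from 6 and 110 reads. Against -dox iPSCs, 2 genes were called, both lower, against 1.25% of all genes: *Dusp6* (-2.59 ± 0.41, adjusted p = 0.000146) and *Spry4* (-2.72 ± 0.54, adjusted p = 0.00297). *Spry4* was not called without D6 replicate 1 (-1.83, adjusted p = 0.203) and was at -5.71 without D6 replicate 2. Against 2i iPSCs, 2 genes were called, both higher, against 1.26% of all genes. *Spry4* was 37.7-fold higher (exact 95% interval for counting error, 12.6 to 185), and *Egr1*, at 12.7 and 26.7 CPM in D6, differed by 3.00 ± 0.60 (adjusted p = 0.00418). Neither was called without D6 replicate 2 (adjusted p = 0.334 and 0.161), where *Spry4* was at 3.36, and *Egr1* was at 7.15 without MKOS 2i replicate 1. *Fgf4* was at 94.8 and 88.7 CPM in D6, its highest mean of all conditions.

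The starting cells and pluripotent cells were compared next, and 5 of the 10 genes were called between TNG MKOS and OKMS ESCs and MKOS and OKMS MEFs, against 50.9% of all genes. Higher in ESCs were *Fgf4*, *Etv5*, and *Spry4*, and lower were *Egr1* and *Dusp6*. The media differed too, with LIF added for ESCs. FGF2 and heparin were added for MEFs, and whether the ESC medium held them is not stated. Cell type and medium thus cannot be told apart here. *Fgf4* had 0 and 0 reads in MKOS MEFs and 0 and 2 in OKMS MEFs, and was at 36.3 and 52.9 CPM in TNG MKOS and 105 and 48.1 CPM in TNG OKMS ESCs, 794-fold higher in the pooled reads (exact 95% interval for counting error, 220 to 6565). *Etv5* was at 15.3 and 13.1 CPM in MKOS MEFs and 17.4 and 26.2 CPM in OKMS MEFs and was 10.1-fold higher in ESCs (3.34 ± 0.27, adjusted p = 2.83e-13). The ligand and this ETS factor were thus both much lower in fibroblasts. *Egr1* was at 319 and 334 CPM in MKOS MEFs and 92.6 and 131 CPM in OKMS MEFs, against 1.86 and 6.54 CPM in TNG MKOS and 14.6 and 7.87 CPM in TNG OKMS ESCs (-4.90 ± 0.53, adjusted p = 3.46e-10). *Dusp6* differed by -0.99 ± 0.29 (adjusted p = 0.00399) and *Spry4* by 2.19 ± 0.39 (adjusted p = 1.16e-05).

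**Figure D3:**
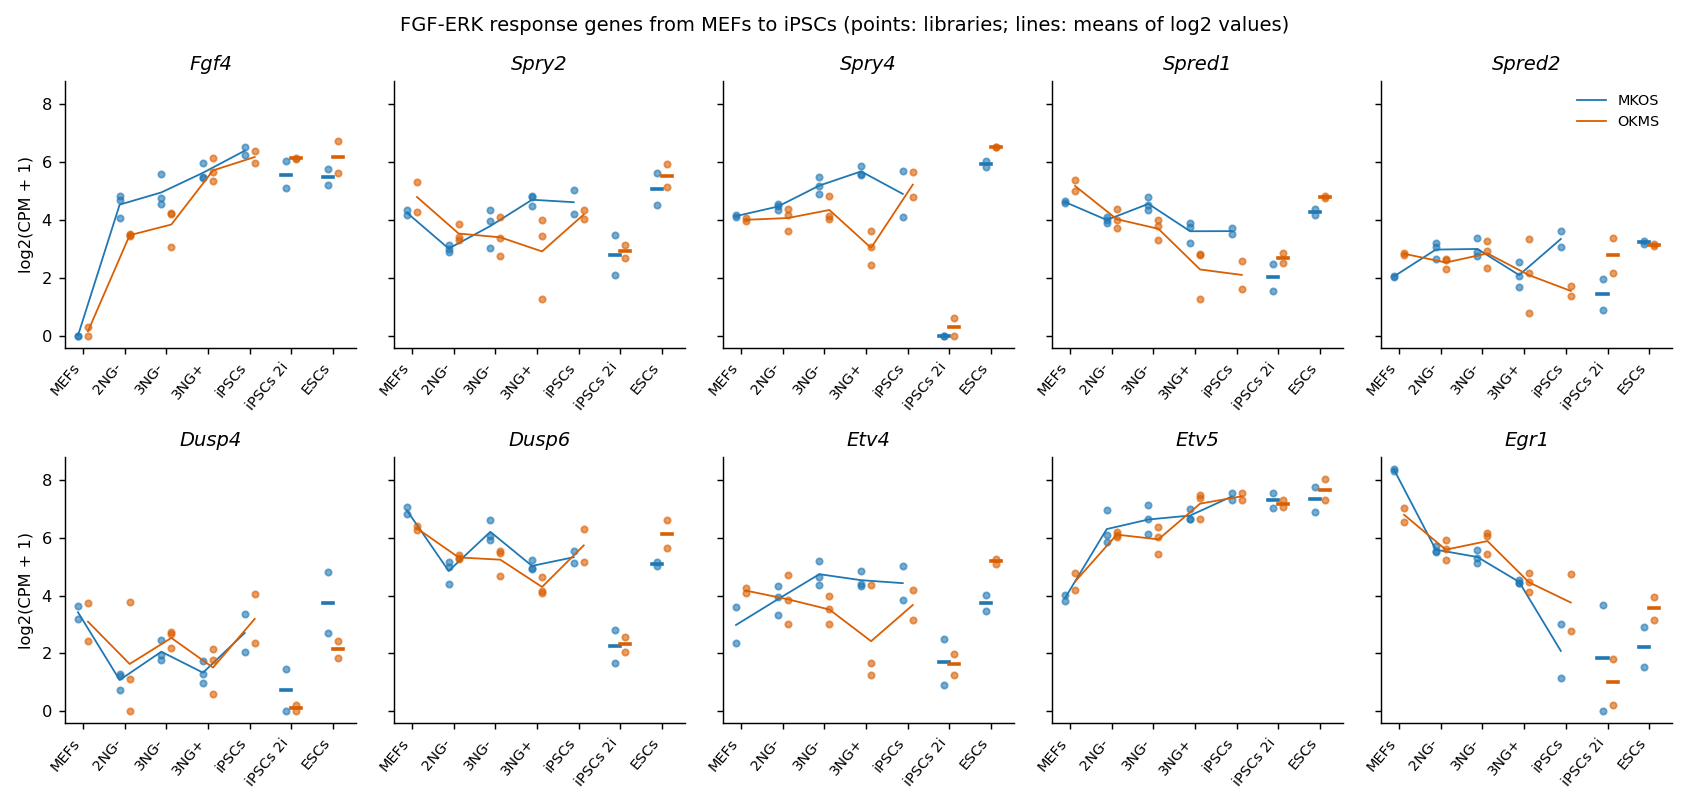
Levels of the 10 genes as log2(CPM + 1) from MEFs over E-CAD+ 2NG-, 3NG-, and 3NG+ cells to -dox iPSCs for MKOS (blue) and OKMS (orange), with 2i iPSCs and the TNG MKOS and TNG OKMS ESCs beside them; points are libraries, lines and bars the means of the log2 values. *Fgf4* and *Etv5* are higher in 2NG- cells than in MEFs with both cassettes, *Egr1* is highest in MEFs, and *Spry4* is lower in OKMS than in MKOS 3NG+ cells.

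In the step from MEFs to E-CAD+ 2NG- cells, 6 genes were called with MKOS, against 27% of all genes, and 2 with OKMS, against 29.2%. The OKMS count depended on the processing: it was 5 by DESeq2's Wald test and 4 to 6 under the 7 alternatives other than leaving out 1 library. *Fgf4* rose with both cassettes. It was at 15.7, 27.5, and 24.9 CPM in MKOS 2NG- cells, at least 104-fold higher than in MKOS MEFs with a floor of 3 reads over the group, and at 9.89, 10.3, and 10.1 CPM in OKMS 2NG- cells, 71.1-fold higher than in OKMS MEFs (exact 95% interval for counting error, 19.5 to 590). *Etv5* rose to 67.8, 56.8, and 123 CPM with MKOS (2.49 ± 0.36, adjusted p = 1.28e-06) and to 64.9, 71.9, and 67.8 CPM with OKMS (1.76 ± 0.35, adjusted p = 0.000128). The other 4 calls with MKOS were falls. *Egr1* fell to 44.4, 52.1, and 45.5 CPM (-2.83 ± 0.57, adjusted p = 0.000197). *Dusp6* fell from 112 and 133 CPM to 31.0, 34.5, and 20.3 CPM (-2.13 ± 0.37, adjusted p = 2.01e-05). *Dusp4* changed by -3.14 ± 1.03 (adjusted p = 0.0194) and lost the call without MKOS 2NG- replicate 3 (adjusted p = 0.0691) or MKOS MEFs replicate 1 (adjusted p = 0.109). *Spry2*, at -1.40 ± 0.53 (adjusted p = 0.0456), was not called when any 1 of the 5 libraries was left out (adjusted p = 0.0675 to 0.222).

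With OKMS, the same step gave *Egr1* at 60.0, 48.4, and 36.3 CPM in 2NG- cells, below both MEF libraries (-1.10 ± 0.56, adjusted p = 0.137). *Dusp6* was at 37.2, 38.7, and 41.3 CPM, below the 75.5 and 83.5 CPM of OKMS MEFs (-0.91 ± 0.37, adjusted p = 0.0553). *Spry2* (-1.29 ± 0.53, adjusted p = 0.0601) and *Spred1* (-1.08 ± 0.45, adjusted p = 0.0642) also missed the threshold. *Dusp4* was carried by 1 library, with 7, 0, and 180 reads in 2NG- replicates 1 to 3 (-0.58 ± 0.97). The difference of the step between the cassettes, added after the levels were seen, was called for 0 of the 10 genes, with 2 at an unadjusted p under 0.05 and 0 called by DESeq2, against 1.35% of all genes. Fibroblast markers moved in the same step: they summed to 109 to 1022 CPM in the 9 sorted MKOS and 75.0 to 388 CPM in the 9 sorted OKMS E-CAD+ libraries, and their part in the falls was not tested. The 2NG- cells were also sorted after culture with doxycycline and VitC. The medium of MEFs held added FGF2, and whether the reprogramming medium did is not stated. These culture conditions cannot be told apart from the step.

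From 2NG- to 3NG- cells, none of the 10 genes was called by edgeR with either cassette. With MKOS, 1 gene had an unadjusted p under 0.05 and 1 was called by DESeq2, against 0.39% of all genes called by edgeR, and with OKMS no gene had such a p, none was called by DESeq2, and 0.0384% of all genes were called. The MKOS gene was *Dusp6*, at 66.6, 97.7, and 59.7 CPM in 3NG- cells, above all 2NG- libraries (1.30 ± 0.34, adjusted p = 0.0746).

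Between 3NG- and 3NG+ cells, sorted apart by *Nanog*-GFP, *Fgf4* and *Etv5* were higher in 3NG+ cells with OKMS, 2 of 10 genes against 6.26% of all genes. By flow cytometry of sorted cells, the paper names E-CAD+ 3NG- cells as the main origin of *Nanog*-GFP+ cells with both cassettes. It leaves unclear whether OKMS 3NG+ cells arose sporadically from partially reprogrammed cells or from a few cells changing as with MKOS. *Fgf4* went from 17.8, 7.38, and 17.7 CPM to 69.6, 49.0, and 40.1 CPM (2.09 ± 0.44, adjusted p = 0.00261), and *Etv5* from 64.0, 42.1, and 82.9 CPM to 167, 101, and 179 CPM (1.46 ± 0.29, adjusted p = 0.00152). Both calls held when any 1 of the 6 libraries was left out, the shallow OKMS 3NG+ replicate 2 included (adjusted p up to 0.038 and 0.029). The other genes with OKMS mostly had estimates below 0: 7 of the 10 were below 0, with a median of -0.74 (log2) against -0.06 for all genes, and none of these was called by edgeR. Among them, *Spry4* was at 27.8, 16.7, and 15.5 CPM in 3NG- cells and at 7.31, 11.2, and 4.44 CPM in 3NG+ cells (-1.29 ± 0.48, adjusted p = 0.1). *Egr1* (-1.30 ± 0.54), *Spred1* (-1.09 ± 0.44), and *Dusp6* (-0.78 ± 0.34) also had estimates below 0, with adjusted p of 0.142, 0.131, and 0.178. With the 2 rises, these made 6 of 10 genes at an unadjusted p under 0.05, against 3355 of 15630 over all genes. With MKOS no gene was called, against 1.58% of all genes, and DESeq2 called 0. At an unadjusted p under 0.05 were 2 (*Dusp6* and *Spry2*), against 2495 of 15630 over all genes. There *Fgf4* was at 25.9, 22.2, and 46.6 CPM in 3NG- and 43.3, 42.9, and 61.9 CPM in 3NG+ cells (0.83 ± 0.42, adjusted p = 0.318). The difference of the step between the cassettes, again added later, was called for 0 of the 10 genes, against 0.0256% of all genes. DESeq2 called 0. At an unadjusted p under 0.05 were 3 (*Spry4*, *Etv5*, and *Fgf4*), against 1163 of 15630 over all genes.

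Between the 3NG+ cells of the cassettes, *Spry4* differed. It was at 57.8, 47.6, and 46.0 CPM in MKOS and 7.31, 11.2, and 4.44 CPM in OKMS 3NG+ cells, without overlap (2.67 ± 0.49, MKOS over OKMS, adjusted p = 0.00304), 6.36-fold higher, and was the only one of the 10 genes called there, against 0.685% of all genes. Leaving out 1 library at a time gave adjusted p from 0.00548 to 0.05. *Spry2*, at 26.7, 27.5, and 21.3 CPM in MKOS and 9.96, 1.40, and 15.2 CPM in OKMS 3NG+ cells, was not called (1.20 ± 0.49, adjusted p = 0.286). In 2NG- and 3NG- cells, 0 genes were called between the cassettes, with 2 at an unadjusted p under 0.05 and 0 called by DESeq2 in each, against 5.07% and 2.17% of all genes.

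From 3NG+ cells to -dox iPSCs, *Spry4* and *Dusp6* rose with OKMS, 2 of 10 genes against 0.614% of all genes. The 3NG+ cells were sorted from culture with doxycycline and VitC, and the iPSCs were without doxycycline, which cannot be told apart from the step. *Spry4* reached 49.5 and 26.5 CPM (2.40 ± 0.52, adjusted p = 0.0198), and *Dusp6* rose from 16.9, 16.1, and 24.0 CPM to 78.8 and 34.7 CPM (1.53 ± 0.38, adjusted p = 0.04). *Spry4* was not called without OKMS 3NG+ replicate 1 (adjusted p = 0.0756), replicate 3 (adjusted p = 0.113), or OKMS -dox replicate 1 (adjusted p = 0.393). *Dusp6* was called only when OKMS -dox replicate 2 was left out, among the 5 libraries, and its change was 0.76 without OKMS -dox replicate 1. With MKOS none of the 10 genes was called, against 2.14% of all genes, with 2 at an unadjusted p under 0.05 (*Spred2* and *Egr1*) and 1 called by DESeq2. *Egr1* went from 20.6, 22.5, and 20.7 CPM in MKOS 3NG+ cells to 7.05 and 1.24 CPM in iPSCs (-2.32 ± 0.67, adjusted p = 0.054). The difference of the step between the cassettes, added later, was called for 0 genes, with 4 at an unadjusted p under 0.05 and 1 called by DESeq2, against 0.064% of all genes. For *Spry4* it was -3.02 ± 0.72 (MKOS minus OKMS, adjusted p = 0.0918).

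Between E-CAD+ and E-CAD- cells of OKMS reprogramming, with 2NG- and 3NG- cells averaged, 1 of the 10 genes was called, *Fgf4*, against 7.08% of all genes. It was at 7.38 to 17.8 CPM in the 6 E-CAD+ libraries, with a median of 10.2 CPM, and at 0 to 6.26 CPM in the 6 E-CAD- libraries, with a median of 3.36 CPM, and the groups did not overlap (2.11 ± 0.36, adjusted p = 8.31e-05). The E-CAD- cells also had fewer reads of the 9 pluripotent cell markers, with sums of 201 to 251 CPM, and more of the fibroblast markers, with 546 to 1004 CPM, and the part of these in the result was not tested. *Etv5* was at 34.4 to 63.7 CPM in the E-CAD- libraries (0.48 ± 0.21, adjusted p = 0.158).

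**Figure D4:**
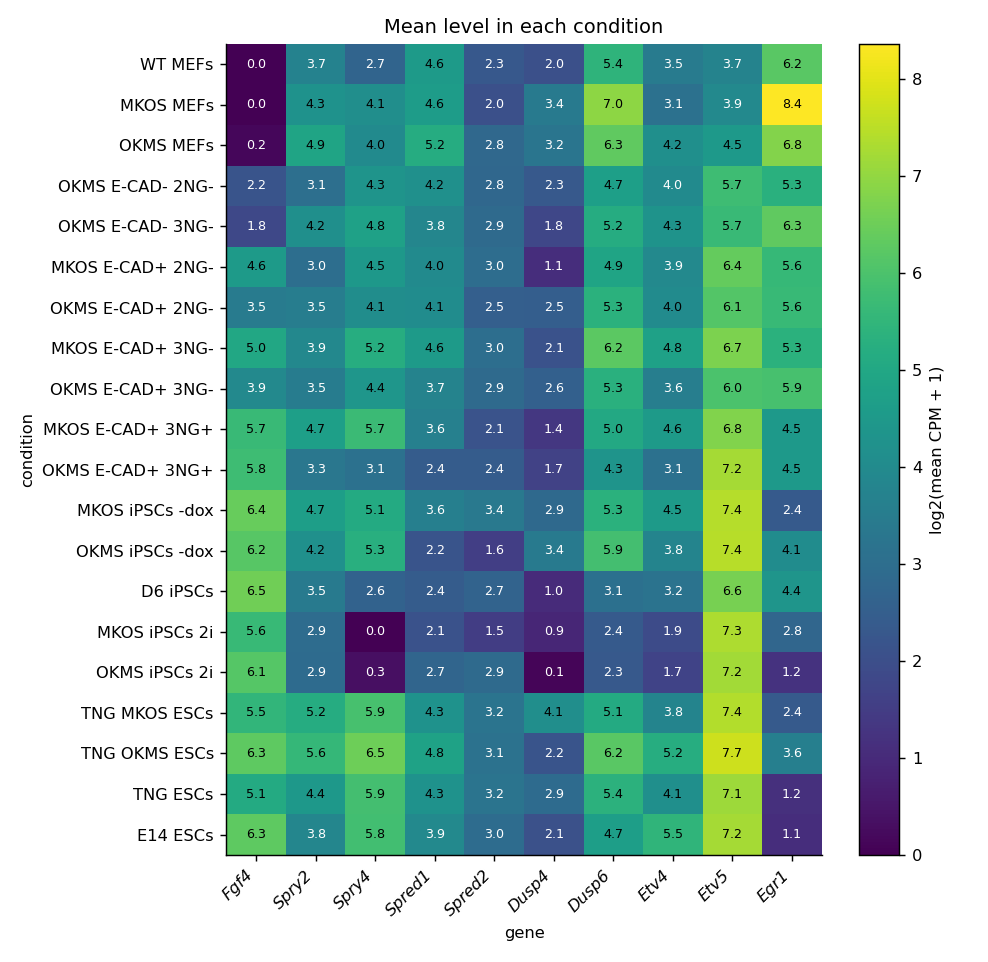
Mean levels of the 10 genes in the 20 conditions as log2(mean CPM + 1), with 3 libraries for each sorted population and 2 for every other condition. *Fgf4* is at or near 0 in the 3 kinds of MEFs, *Egr1* is highest in MKOS MEFs, and the 2i iPSCs of the cassettes hold the lowest values of *Spry2*, *Spry4*, *Dusp4*, *Dusp6*, and *Etv4*.

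Over all 20 conditions, the 2i iPSCs of the cassettes held the lowest means for *Spry2*, *Spry4*, *Dusp4*, *Dusp6*, and *Etv4*. *Spry4* ranged from 0 in MKOS 2i iPSCs to 90.7 CPM in TNG OKMS ESCs, *Spry2* from 6.59 CPM in OKMS 2i iPSCs to 46.8 CPM in TNG OKMS ESCs, and *Dusp6* from 4.04 CPM in OKMS 2i iPSCs to 123 CPM in MKOS MEFs. *Dusp4* was highest in TNG MKOS ESCs (16.3 CPM, from 5.48 and 27.2 CPM) and *Etv4* in E14 ESCs (43.1 CPM). *Fgf4* was highest in D6 (91.7 CPM) and at 0 in WT and MKOS MEFs. *Etv5* ranged from 12.4 CPM in WT MEFs to 209 CPM in TNG OKMS ESCs, and *Egr1* from 1.13 CPM in E14 ESCs to 327 CPM in MKOS MEFs. *Spred1* was highest in OKMS MEFs (35.5 CPM) and *Spred2* in MKOS -dox iPSCs (9.34 CPM), and both were lowest in MKOS 2i iPSCs (3.28 and 1.86 CPM). With the conditions ordered by mean level, most of the 19 neighboring pairs overlapped: 0 pairs were separate for *Spry2* and *Dusp4*, 1 for *Fgf4* and *Spred2*, 2 for *Etv4* and *Egr1*, 3 for *Dusp6* and *Etv5*, and 4 for *Spry4* and *Spred1*. For *Spry4*, TNG OKMS ESCs stood above all other conditions.

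Likeness between the genes varied widely. Across the 20 condition means of log2(CPM + 1), Pearson's r between pairs of the 10 genes had a median of 0.184 and was above 0 in 35 of 45 pairs. These correlations are descriptions, since the conditions share cell types, cassettes, and sequencing depth. *Fgf4* and *Etv5* were the most alike (0.956), followed by *Spry4* and *Etv4* (0.886), whereas *Egr1* ran opposite to *Etv5* (-0.798) and *Fgf4* (-0.774). In the 11 conditions of 3NG+ cells, iPSCs, and ESCs, which include 2i, *Spry4* and *Dusp6* had an r of 0.940. It was 0.733 in all 20 and 0.354 in the 18 conditions other than 2i, which hold MEFs and all sorted cells. The pluripotent conditions without 2i were not computed alone.

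Outside the 10 genes, the most alike over the 20 conditions were *Mybl2*, *Dppa5a*, and *Fbxo15* for *Fgf4* (r = 0.985 to 0.986) and *Mybl2*, *Cdt1*, and *Baz2a* for *Etv5* (0.968 to 0.973). For *Egr1* they were *Prickle1*, *Emp1*, and *Phlda1* (0.914 to 0.938), and for *Dusp6* *Id1*, *Bcl2l11*, and *Gja1* (0.879 to 0.932). *Spry4* was nearest to *Adam23*, *Gm98*, and *Chd9* (0.853 to 0.891), *Etv4* to *Adam23*, *Crmp1*, and *Dido1* (0.794 to 0.825), and *Spry2* to *Tns3*, *Ica1l*, and *Pnpla8* (0.810 to 0.881). *Dusp4* was nearest to *Arl4a*, *Adk*, and *AF357355* (0.785 to 0.809), *Spred1* to *Rnf146*, *Ube2v1*, and *Zdhhc3* (0.879 to 0.903), and *Spred2* to *Fbxo28*, *Ccdc9*, and *Usp36* (0.771 to 0.778). With a pseudocount of 0.1 in place of 1, 18 of these 30 places were held by the same genes, and none of the 3 for *Dusp4*.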

How the data were processed

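STRT libraries of sorted or cultured mouse cells were sequenced by the authors, who deposited raw read counts per transcript without normalization. Reads with several positions were counted at the most 5′ exonic one. The submitters' processing notes name Bowtie 0.12.7 and mm10, whereas the methods name an earlier build, and contig names in the table are those of GRCm38. Groups and replicate numbers were taken from the labels, with day 10 for the sorted cells as the methods give it. The members and gene lists were chosen with earlier results of these data known.

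CPM was computed over the transcript rows, so repeats and spike-ins were left out. All 48 libraries entered 1 quasi-likelihood model of edgeR 4.0.16 (R 4.3.3) with a coefficient for each of the 20 conditions, after edgeR's default filter by condition (15630 genes left) and TMM scaling, at a common dispersion of 0.217. Genes with a Benjamini-Hochberg adjusted p of at most 0.05 over all genes tested were called. Standard errors were derived as the log2 change divided by the square root of F. On simulated counts for the 2i comparison with 200 of 15630 genes changed 4-fold, 133 changed and 3 unchanged genes were called. The 10 genes were named in every comparison, of the pathway and marker lists every gene called in 2i and at most 3 per list elsewhere, and for each gene the 3 most alike. Of the lists, *Hras* was not found in the table. Of 24 comparisons, 18 were planned and 6 were added after the data were seen. The alternatives were DESeq2 1.42.0's Wald test, its size factors, library totals, no filter, fits to the compared libraries alone, a replicate block, 41 libraries (without the 7 sorted libraries that the study's averages leave out), and each library left out. Intervals of count ratios are exact binomial intervals and, like floors of 3 reads, cover counting error only, as PCR copies were not removed. The STRT count depends on capture of the 5′ end. Python 3.11.15, pandas 2.3.3, NumPy 2.4.6, SciPy 1.17.1, and Matplotlib 3.10.9 were used for tables and figures.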

Additional observations from a re-analysis of the deposited data

Results flagged for a closer look

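In 3 cases every library of 1 cassette moved one way and every library of the other the opposite way, and the difference itself was tested with edgeR's quasi-likelihood test. How often this pattern occurred over all genes was not counted, so the 3 cases are descriptions. With so few libraries, lack of overlap was common: in 2i, 18.5% of all genes tested had none in the lower direction with MKOS and 12.8% with OKMS. *Spred2*, an inhibitor of the cascade, differed between the cassettes in its change in 2i by 3.95 ± 1.08 on the log2 scale (OKMS minus MKOS, adjusted p = 0.272), with every 2i library lower in MKOS and higher in OKMS. In the step from MEFs to 2NG- cells, *Spred2* differed by 1.35 ± 0.93 (MKOS minus OKMS, adjusted p = 0.582). *Spry4* differed by 1.95 ± 0.65 in the step from 3NG- to 3NG+ cells (MKOS minus OKMS, adjusted p = 0.398). None of the 3 passed the threshold after adjustment.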

How the results depend on the processing

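Counts below are of the 10 genes called. DESeq2's Wald test gave 6 for MKOS 2i, 2 for the 2i difference between the cassettes, 5 for OKMS MEFs to 2NG-, 1 for MKOS 2NG- to 3NG-, and 1 each for MKOS 3NG+ to iPSCs and its difference between the cassettes. Over all genes, that test called 617, 36, and 4916 in the first 3 of these, in place of 308, 1, and 4569. OKMS MEFs to 2NG- also had 5 with DESeq2's size factors, library totals, or no filter, 6 with the compared libraries alone, and 4 with 41 libraries. Library totals gave 1 for MKOS 2NG- to 3NG- and 1 for MKOS 3NG- to 3NG+, and moved the median log2 change of all genes in the step from 3NG- to 3NG+ from -0.06 to -0.27 in OKMS and from -0.04 to -0.21 in MKOS. Without a filter there were 4 for OKMS 3NG- to 3NG+, 2 each for MKOS over OKMS in 3NG+ cells and the 3NG+ to iPSC difference, and 1 each for the 2i difference, MKOS 2NG- to 3NG-, 3NG- to 3NG+, and 3NG+ to iPSCs, the cassettes in 2NG- and 3NG- cells, and the differences in the MEF and 3NG- to 3NG+ steps. Without a filter more genes were called overall too, for instance 143 in place of 1 for the 2i difference and 237 in place of 61 for MKOS 2NG- to 3NG-. Alone, the compared libraries gave 2 for OKMS 2i, 1 each for MKOS 2NG- to 3NG-, MKOS 3NG- to 3NG+, OKMS 3NG+ to iPSCs, D6 over -dox iPSCs, and the MEF step difference, and 0 for D6 over 2i iPSCs. The 41 libraries gave 1 for MKOS 3NG+ to iPSCs, 2 for the cassettes in 3NG+ cells, and 1 for the 3NG+ to iPSC difference. Leaving out 1 library at a time gave 2 to 4 for OKMS 2i, 0 to 1 for the 2i difference, 0 to 1 for MKOS 3NG+ to iPSCs, 0 to 2 for OKMS 3NG+ to iPSCs, 1 to 2 for the cassettes in 3NG+ cells, 0 to 1 for -dox iPSCs over ESCs, 1 to 2 for D6 over -dox iPSCs, 0 to 2 for D6 over 2i iPSCs, and 0 to 1 for the 3NG+ to iPSC difference. Estimates changed sign with 1 library left out for *Etv5* in MKOS 2i (-0.498 to 0.103, above 0 without 2i replicate 1), *Egr1* in MKOS 2i (-7.95 to 2.12, below 0 without 2i replicate 1 or, at -0.345, -dox replicate 2), and *Fgf4* in OKMS 2i (-0.446 to 0.0869, above 0 without -dox replicate 1). The cause of these changes was not tested. Replicate numbers were not treated as pairs in the main model. Same-numbered libraries of the 2i comparison deviated with correlations of -0.0154 to 0.136 (0.105 within OKMS), and no comparison with 3 or more pairs had every correlation above 0.1. Between 2NG- and 3NG- cells all were positive, at 0.0868 to 0.316 with MKOS and 0.0667 to 0.289 with OKMS. Same-numbered sorted libraries may thus share variation. A replicate block gave 4 for OKMS MEFs to 2NG- and 1 for MKOS 3NG+ to iPSCs, and 765 genes in place of 679 over all genes in 2i. Depth limits the low genes: 3 reads were 0.212 to 2.10 CPM.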
